A study of Mus musculus with 4 samples.

Results

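Peaks from a chromatin immunoprecipitation and sequencing (ChIP-seq) study of the transcription factor TEAD1 were examined at the genes of the 3 Runx transcription factors, Runx1, Runx2 and Runx3, and of their shared partner Cbfb. The loci comprise every deposited peak whose summit lay in the annotated span of one of these genes or within 100 kb of either end of it, in GRCm38 coordinates. This gave 34 of the 21285 peaks in list 1 and 39 of the 21218 peaks in list 2, or 73 of 42503 in all. The samples were cardiac fibroblasts of newborn mice carrying a TEAD1 overexpression construct (OE-TEAD1) or its negative control (OE-NC), each with 1 ChIP library and 1 input library, so that 4 libraries made 4 groups without replicates. The study asked which regulatory elements TEAD1 binds in these cells. Neither deposited list is tied to OE-TEAD1 or OE-NC by its labels, so no effect of overexpression is given. The sources used here do not give the vector and promoter of the construct, the antibody or an exact age of the mice. RNA was not measured in these files, and whether the cells carried fibroblast markers was not checked.

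Runx proteins bind DNA through the Runt domain, as dimers with CBFβ, the product of Cbfb, which itself does not touch DNA and raises the affinity of its partner. Runx1 is known for its part in the origin of blood stem cells, Runx2 for osteoblast formation and Runx3 for T cells and sensory neurons. Each Runx gene is transcribed from a distal and a proximal promoter that lie far apart. YAP and TAZ, the coactivators that TEAD factors recruit, also bind Runx proteins through their WW domains.

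The promoter sequences of the Runx genes are shown because peaks lay over some of them and not over others, and because they hold TEAD or Runx core letters. They are RefSeq sequences of GRCm38.p6, each from 250 bases before an annotated start to 50 bases from it on, 5′ to 3′ along the gene. Capitals mark matches to GGAATG (the TEAD core), TGTGGT (the Runx core) or TGANTCA (AP-1) on either strand.
Runx1, first start, chr16:92826025-92826324, minus strand: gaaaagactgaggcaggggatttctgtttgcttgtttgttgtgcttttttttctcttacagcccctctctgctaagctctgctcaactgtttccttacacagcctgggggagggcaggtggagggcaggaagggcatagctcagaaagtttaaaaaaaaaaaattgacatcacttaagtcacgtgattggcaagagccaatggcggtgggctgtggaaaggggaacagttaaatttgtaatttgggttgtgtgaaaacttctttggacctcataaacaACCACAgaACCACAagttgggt
Runx1, second start, chr16:92697280-92697579, minus strand: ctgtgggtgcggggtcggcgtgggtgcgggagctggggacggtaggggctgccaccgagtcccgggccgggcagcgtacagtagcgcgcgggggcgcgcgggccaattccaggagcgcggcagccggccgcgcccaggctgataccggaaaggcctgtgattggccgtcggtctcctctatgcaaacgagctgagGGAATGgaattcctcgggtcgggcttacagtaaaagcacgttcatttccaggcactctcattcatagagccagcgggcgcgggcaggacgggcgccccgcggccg
Runx2, chr17:44814578-44814877, minus strand: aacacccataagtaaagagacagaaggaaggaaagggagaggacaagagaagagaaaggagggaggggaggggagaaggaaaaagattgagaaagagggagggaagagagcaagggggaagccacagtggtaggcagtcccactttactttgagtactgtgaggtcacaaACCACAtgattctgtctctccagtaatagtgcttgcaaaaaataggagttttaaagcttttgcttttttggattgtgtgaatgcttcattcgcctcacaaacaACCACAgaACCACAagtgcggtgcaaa
Runx3, first start, chr4:135120395-135120694, plus strand: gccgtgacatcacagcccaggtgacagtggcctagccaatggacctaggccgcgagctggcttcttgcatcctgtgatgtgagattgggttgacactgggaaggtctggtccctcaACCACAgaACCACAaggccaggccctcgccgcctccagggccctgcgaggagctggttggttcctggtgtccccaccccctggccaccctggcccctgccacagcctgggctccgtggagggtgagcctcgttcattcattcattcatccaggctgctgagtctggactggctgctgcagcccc

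All 4 genes matched the promoter table by symbol, with 2 starts each for Runx1 and Runx3 and 1 each for Runx2 and Cbfb. The Runx2 start lies 0.17 kb from the 5′ end of the gene span, so its proximal promoter had no window here. The first starts of Runx1, Runx2 and Runx3 share an unbroken stretch of 18 bases, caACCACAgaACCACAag, which holds a tandem pair of Runx cores. It begins at base 27 after the start in Runx1, at base 22 in Runx2 and at base -136 in Runx3, counted from 1 at the start. No other of the 21045 protein-coding gene starts in the table had it in its window. A Runx core occurred in 14.7% of all windows, and 2 or more in 1.45%. The TEAD core occurred at the second start of Runx1 alone among the 6 starts of the 4 genes, at bases -55 to -50, while 13.5% of all windows of 300 bases held it. No AP-1 match was found in the 6 windows, against 7.04% of all windows.

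Peaks lay over the windows of 2 of these 6 starts, the first start of Runx1 and the start of Runx2, in both lists. Over all protein-coding gene starts, 1.69% of windows in list 1 and 1.53% in list 2 had a peak over them. At the first Runx1 start the list 1 peak stood at 4.34-fold (95% interval 2.46 to 7.20), its summit 67 bp before the start. The list 2 peak stood at 5.53-fold (3.40 to 8.57), its summit 1 bp before the start. They rested on 13 and 18 ChIP fragments and covered 265 and 231 of the 300 bases printed above. Fold is the authors' value, taken as ChIP pileup plus 1 over background plus 1 at the summit. The lowest recovered background, 1.72 fragments in list 1 and 1.87 in list 2, recurred at peaks of different genes. Whether that value was measured locally at each of them is not given. The intervals are exact Poisson intervals of the recovered fragment number, so they reflect ChIP counting error alone. Both folds were below the median over all peaks, 6.24 in list 1 and 6.83 in list 2.

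The Runx2 start peak stood at 4.27-fold in list 1 (2.51 to 6.87) against 5.89-fold in list 2 (3.86 to 8.64), on 15 and 24 fragments, again below the list medians. Its summits lay 195 and 189 bp before the 5′ end of the gene span, 365 and 359 bp before the annotated start. They were 115 and 109 bp beyond the printed window, of which the peaks covered 300 and 148 bases. This site also lay inside the span of Supt3, which encodes a subunit of transcriptional coactivator complexes and overlaps the 5′ part of Runx2. The second Runx1 start, which holds the TEAD core, had no peak over it. Its nearest summits were 12.9 kb away in list 1 and 8.42 kb away in list 2. Windows under a peak held the TEAD core in 34.4% of 355 cases in list 1 and 32.5% of 323 in list 2, and the windows of the Runx1 and Runx2 start peaks were among those without it.

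**Figure D1:**
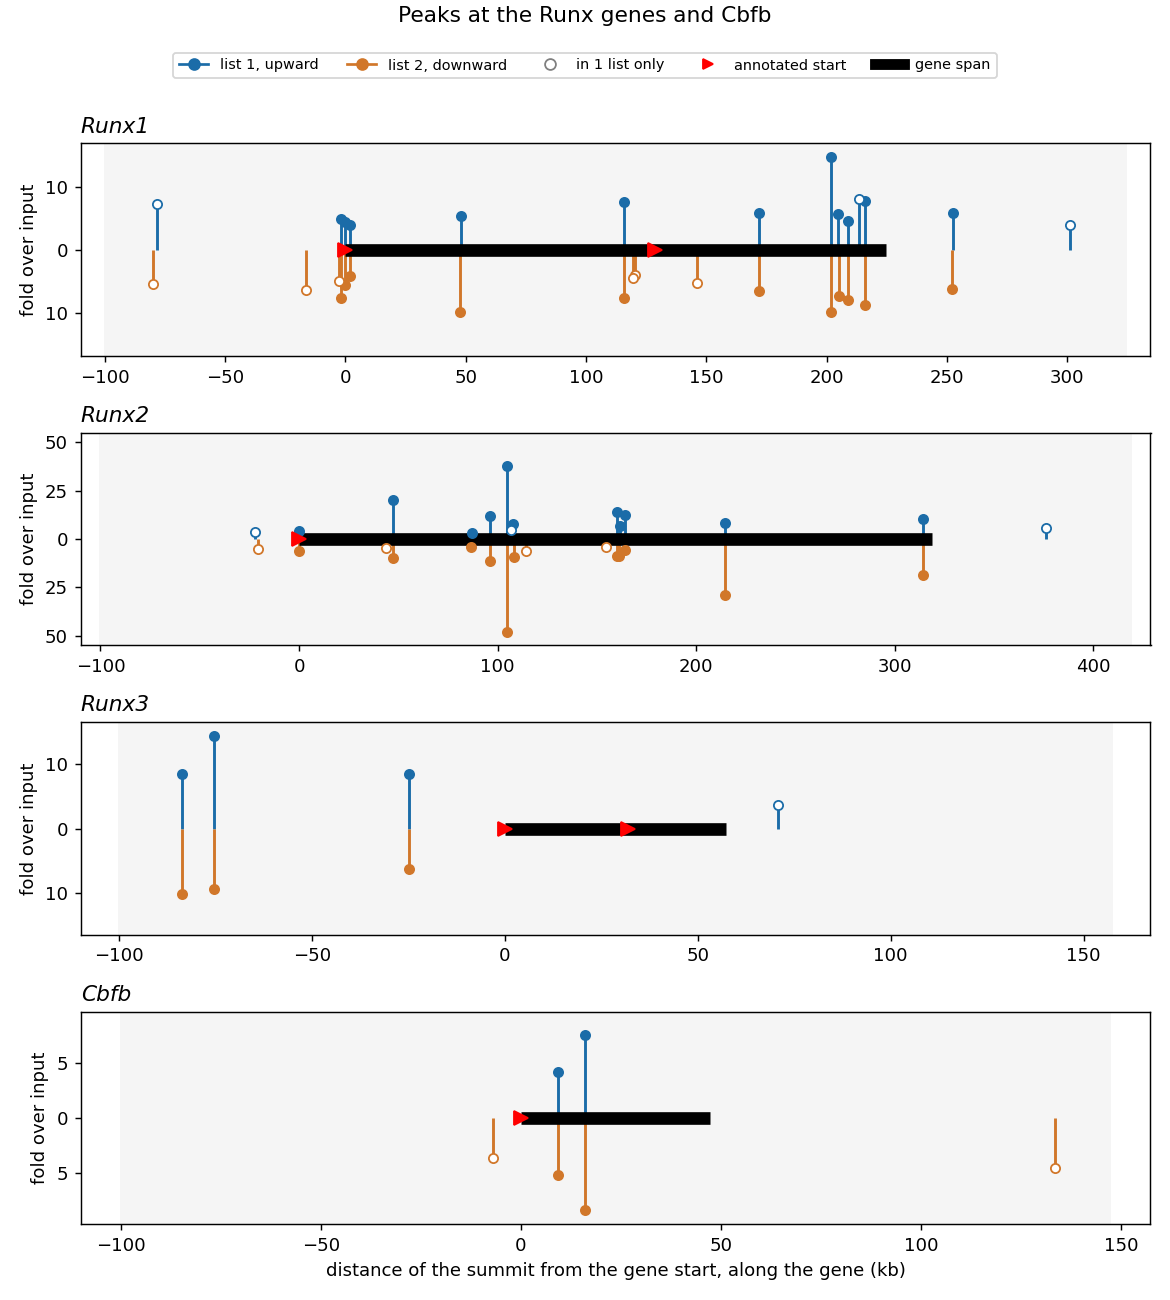
Peak summits along Runx1, Runx2, Runx3 and Cbfb, by distance from the gene start in kb (horizontal) and fold over input (vertical, with its own scale for each gene), list 1 upward and list 2 downward. Open points were called in 1 list only. Runx2 holds the tallest peak, 37.6-fold and 47.8-fold over input, and the span of Runx3 has no summit.

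Runx2 carried the strongest peaks. Its window held 14 summits in list 1 and 15 in list 2, of which 11 and 13 lay inside the gene span on chromosome 17 (44495987 to 44814797, 318.8 kb, NCBI gene 12393). The strongest peak, at 44709806 to 44710526 in list 1, lay 104.8 kb from the gene start and was 37.6-fold over input (30.8 to 45.4), with 106 fragments. In list 2 the same site, at 44709791 to 44710487, was 47.8-fold over input (40.2 to 56.5), with 136 fragments. Its −log10 q of 139.6 and 193.6 gave it rank 306 among all peaks of list 1 and likewise rank 306 in list 2, within the first 1.44% of either list. The summits of the lists were 17 bp apart. Whether the site lies in an exon or an intron was not analysed here.

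Another strong Runx2 site lay 214.7 kb from the gene start. List 1 had it at 8.32-fold (6.53 to 10.4), list 2 at 28.7-fold (23.0 to 35.4). The fragment numbers were close, 72 in list 1 and 86 in list 2, while the local backgrounds were 7.78 and 2.03 fragments. Of the quantities behind the fold, the local background differed more between the lists than the fragment number. The site 47.3 kb from the start stood at 20.2-fold in list 1 (15.3 to 26.2) against 9.89-fold in list 2 (7.04 to 13.5), on 54 and 37 fragments. A site near the 3′ end of the span, 314.2 kb from the start, stood at 10.5-fold (7.61 to 14.1) in list 1 against 18.4-fold (14.2 to 23.4) in list 2, on 42 and 64 fragments. Near the middle of the gene, 160.2 kb from the start, the folds were 14.1 (10.7 to 18.2) in list 1 and 8.60 (6.17 to 11.7) in list 2, with 57 and 39 fragments. These 5 sites include all Runx2 peaks that ranked in the first 10% of their list by −log10 q, 3 in list 1 and 3 in list 2.

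The remaining Runx2 peaks ran from 3.18-fold to 12.7-fold in list 1 and from 4.22-fold to 11.5-fold in list 2. Sites 96.1 and 164.1 kb from the start had folds of 11.9 and 12.7 in list 1, against 11.5 and 5.82 in list 2. Apart from the start peak, the other shared sites, 161.5, 107.9 and 87.0 kb from the start, ran from 3.18-fold to 7.79-fold in list 1 and from 4.22-fold to 9.37-fold in list 2. At least 10-fold over input were 6 of 14 Runx2 peaks in list 1 and 4 of 15 in list 2, against 22.9% and 28.1% of all peaks. A peak of the other list overlapped 78.6% of Runx2 peaks in list 1 and 73.3% in list 2, against 70.9% and 71.4% of all peaks. Runx2 peaks of list 1 that list 2 lacked numbered 3 and those of list 2 that list 1 lacked numbered 4. The strongest of them by −log10 q were 5.51-fold in list 1, 57.3 kb beyond the 3′ end, and 5.88-fold in list 2, inside the span and 114.2 kb from the gene start.

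Runx1 had a similar number of peaks, at lower folds. Its window held 14 summits in list 1 and 17 in list 2, with 9 and 11 inside the span on chromosome 16 (92601466 to 92826074, 224.6 kb, NCBI gene 12394). The strongest by −log10 q, at 92624108 to 92624814 in list 1 and 201.8 kb from the first start, was 14.7-fold over input (10.6 to 19.9) with 39 fragments. In list 2 this site, at 92624131 to 92624592, stood at 9.90-fold (6.90 to 13.8) on 33 fragments. The next by −log10 q in both lists, 216.1 kb from the start, stood at 7.78-fold and 8.71-fold with 31 and 36 fragments. After it came, in list 1, the site 115.8 kb from the start (7.52-fold and 7.74-fold, 26 and 35 fragments) and, in list 2, the site 47.9 kb from it (5.40-fold and 9.87-fold, 24 and 31 fragments). Only 1 Runx1 peak of list 1 and 0 of list 2 reached 10-fold, and 0 of either list ranked in the first 10%. Its folds ran from 3.89 to 14.7 in list 1 (median 5.79) and from 3.95 to 9.90 in list 2 (median 6.40). The Runx2 medians were 8.06 and 8.56.

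**Figure D2:**
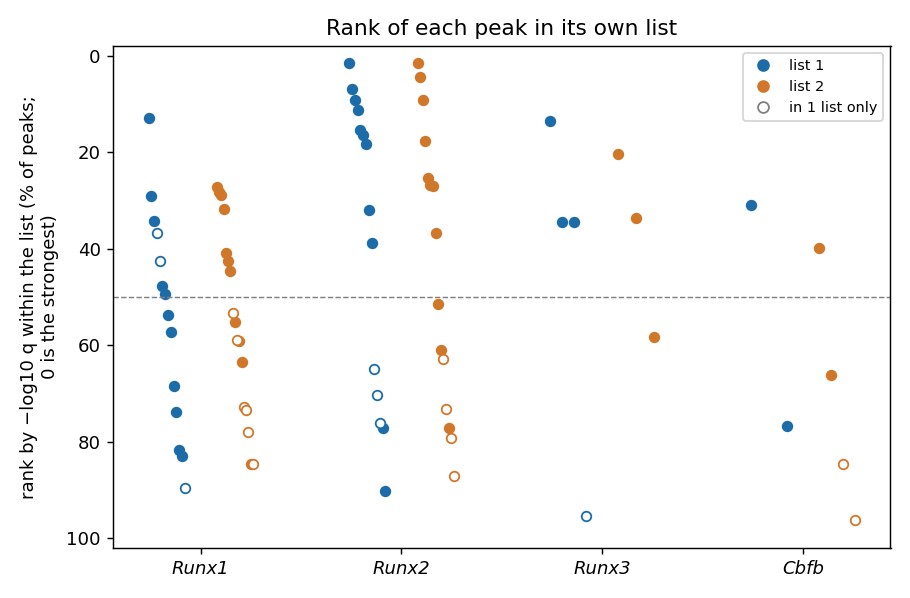
Rank of each peak by −log10 q within its own list, as a percentage of all peaks (vertical, 0 at the top is the strongest), for each gene and list. The dashed line marks 50%, and open points were called in 1 list only. The strongest Runx2 peak stands at 1.44% in both lists, and the highest Runx1 peak at 13.0% in list 1 and 27.3% in list 2.

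The summits of Runx1 lay in groups. Counting runs of at least 3 summits of a list with gaps of at most 5 kb, 8 of 14 Runx1 summits in list 1 and 10 of 17 in list 2 were in such runs, against 9.44% and 9.42% of all peaks. The rule for runs was set after these positions were seen, so the contrast only describes them. Runx2 had 6 of 14 and 3 of 15 in runs. Near the 3′ end of Runx1, list 1 had a run of 5 summits over 14.3 kb, 201.8 to 216.1 kb from the first start. In list 2 a run of 3 summits over 7.20 kb stood in the same stretch, and a 4th summit lay at 216.1 kb, outside the run. Around the first start, list 1 had 3 summits over 3.64 kb with folds of 3.89 to 4.88, and list 2 had 4 over 4.58 kb with folds of 4.12 to 7.73. A further run, of 3 summits 115.7 to 120.3 kb from the first start, was found in list 2. List 1 had 1 summit there.

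Between these groups long stretches of Runx1 were empty. From 1.89 kb to 47.5 kb after the first start neither list had a summit, and the next site after that one lay 115.7 kb from the start. Of the Runx1 peaks, 78.6% in list 1 and 64.7% in list 2 overlapped a peak of the other list, against 70.9% and 71.4% of all peaks. Runx1 peaks without a counterpart numbered 3 in list 1 and 6 in list 2. The strongest was 213.3 kb from the start in list 1 (8.08-fold, 21 fragments), inside the 3′ run. That of list 2 lay 16.2 kb before the first start (6.40-fold, 21 fragments). The summits 78.1 kb before the start in list 1 and 79.8 kb before it in list 2 were 7.34-fold and 5.52-fold and belonged to separate peaks.

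Runx3 had peaks outside the gene only. No summit of either list lay in its span on chromosome 4 (135120645 to 135177990, 57.3 kb, NCBI gene 12399), as was the case for 75.6% of protein-coding genes. The window held 4 summits in list 1 and 3 in list 2, and the 3 shared sites lay upstream. At 75.3 kb before the first start the fold was 14.3 (10.2 to 19.5) in list 1 and 9.42 (6.27 to 13.6) in list 2, on 38 and 26 fragments. This site lay in the span of the long noncoding RNA gene Gm42327. The site 83.8 kb before the start was 8.45-fold (5.43 to 12.6) and 10.1-fold (7.45 to 13.4), on 22 and 46 fragments. Its backgrounds were 1.72 fragments in list 1, the lowest there at these loci, and 3.65 in list 2. In list 2 this site had the highest −log10 q at Runx3, 31.1. The shared site nearest the gene, 24.9 kb before the start, was 8.45-fold (5.43 to 12.6) and 6.27-fold (3.85 to 9.72). A weak peak 13.5 kb beyond the 3′ end (3.67-fold, 9 fragments) was called in list 1 alone, and its −log10 q was 2.38.

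Cbfb, the partner of all 3 Runx proteins, had 2 sites inside its span on chromosome 8 (105170674 to 105217989, 47.3 kb, NCBI gene 12400), both called in both lists. The stronger, 16.1 kb from the start, stood at 7.54-fold in list 1 (5.17 to 10.7) against 8.37-fold in list 2 (5.44 to 12.4), on 30 and 23 fragments. The weaker, 9.32 kb from the start, was 4.14-fold (2.47 to 6.56) and 5.21-fold (3.24 to 7.98), with 16 and 19 fragments. List 2 had 2 further weak peaks. They lay 6.90 kb before the start (3.63-fold, 10 fragments) and 86.0 kb beyond the 3′ end (4.54-fold, 12 fragments). The last of these was inside the span of E2f4, a cell cycle transcription factor gene. The Cbfb window overlaps 13 other protein-coding genes, against 1 or 2 in each Runx window.

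**Figure D3:**
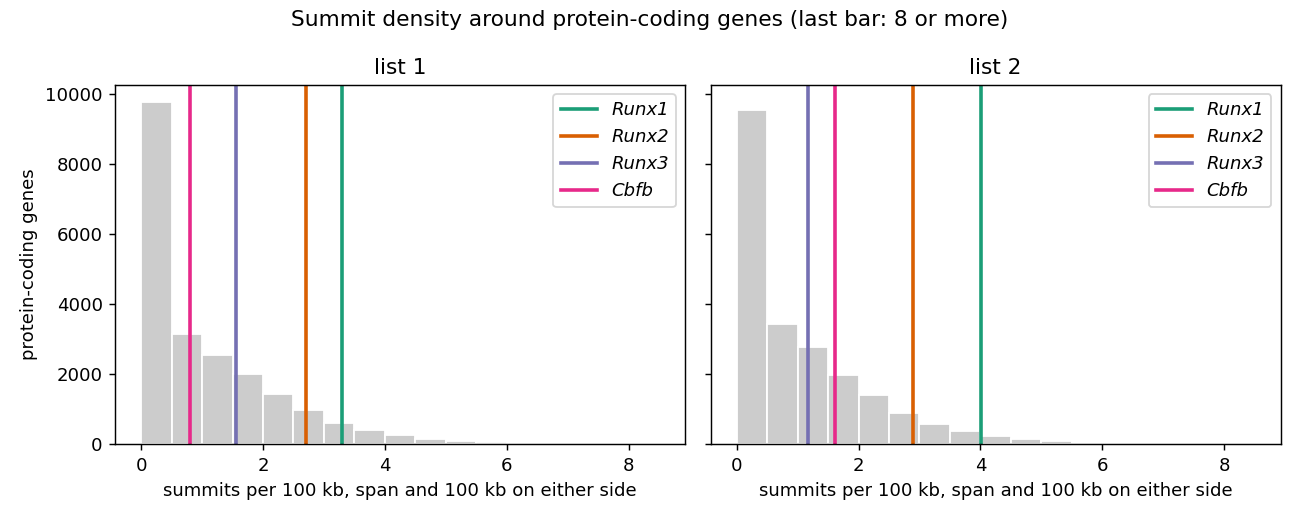
Number of protein-coding genes (vertical) by summits per 100 kb of span plus 100 kb on either side (horizontal), in list 1 and list 2, with a line for each of the 4 genes. Runx1 stands at 3.30 and 4.00 summits per 100 kb and Runx2 at 2.70 and 2.89, and the median gene at 0.865 and 0.878.

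The same window was laid around all 21631 protein-coding genes of chromosomes 1 to 19 and X, since long genes collect more peaks. All 4 genes had a summit in the window in both lists, as did 70.9% of all genes in list 1 and 72% in list 2. Per 100 kb, Runx1 had 3.30 summits in list 1 (exact Poisson interval 1.80 to 5.53) and 4.00 in list 2 (2.33 to 6.41). As dense or denser were 6.50% and 2.82% of genes. Runx2 had 2.70 (1.48 to 4.53) and 2.89 (1.62 to 4.77), reached by 11.3% and 8.60% of genes. Runx3 had 1.55 (0.424 to 3.98) and 1.17 (0.240 to 3.41), and Cbfb 0.809 (0.0979 to 2.92) and 1.62 (0.441 to 4.14), against medians of 0.865 and 0.878. The intervals of Runx3 and Cbfb include the median in both lists, and those of Runx1 and Runx2 lie above it. Summits that lie in groups are not independent counts, so these intervals are narrower than they should be.

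Inside gene spans, 20.7% of genes in list 1 and 20.8% in list 2 had a summit. As many summits in the span as Runx2 (11 and 13) were found in 0.402% and 0.185% of genes, and as many as Runx1 (9 and 11) in 0.754% and 0.379%. Both spans are long, and per 100 kb of span more genes reached the values. Runx2 had 3.45 and 4.08 summits per 100 kb, reached by 8.84% and 7.03% of genes, and Runx1 had 4.01 and 4.90, reached by 7.32% and 5.66%. The median span over all genes was 17.3 kb, and a short gene reaches such densities with few summits. These shares therefore do not compare genes of like length. Cbfb had 4.23 in each list, reached by 6.90% and 6.77% of genes, but this rests on 2 summits (exact Poisson interval 0.512 to 15.3). At the edge of the windows, the last summits inside lay at 78.1 and 79.8 kb for Runx1, and the first beyond it at 104.1 kb in both lists, with folds of 10.4 and 18.5. For Runx2 the first beyond lay at 105.8 and 100.6 kb (5.88-fold and 5.18-fold), for Runx3 at 121.2 and 121.5 kb (8.35-fold and 12.2-fold) and for Cbfb at 168.2 kb in both lists (7.29-fold and 10.5-fold).

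Most peaks of the 4 genes were called in both lists. Of 34 peaks in list 1, 27 overlapped a list 2 peak by at least 1 bp, or 79.4% (exact binomial interval 62.1 to 91.3), against 70.9% of all list 1 peaks. Of 39 peaks in list 2, 27 were shared, or 69.2% (52.4 to 83.0), against 71.4% of all list 2 peaks. Both intervals include the share over all peaks. They treat peaks as independent, which grouped peaks of 1 gene are not, so they may be too narrow. The peaks of 1 list only reached at most 8.08-fold among 7 in list 1 and 6.40-fold among 12 in list 2. The shared peaks had medians of 7.54 and 8.37, beside 7.58 and 8.37 over all shared peaks of the lists. The −log10 q of the peaks of 1 list only was at most 13.5 and 10.6. In list 1, those of Runx1 at 213.3 kb after the start (8.08-fold) and 78.1 kb before it (7.34-fold) ranked at 36.8% and 42.5% of the whole list by −log10 q, above its middle. The highest list-only peak of list 2 ranked at 53.3%.

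**Figure D4:**
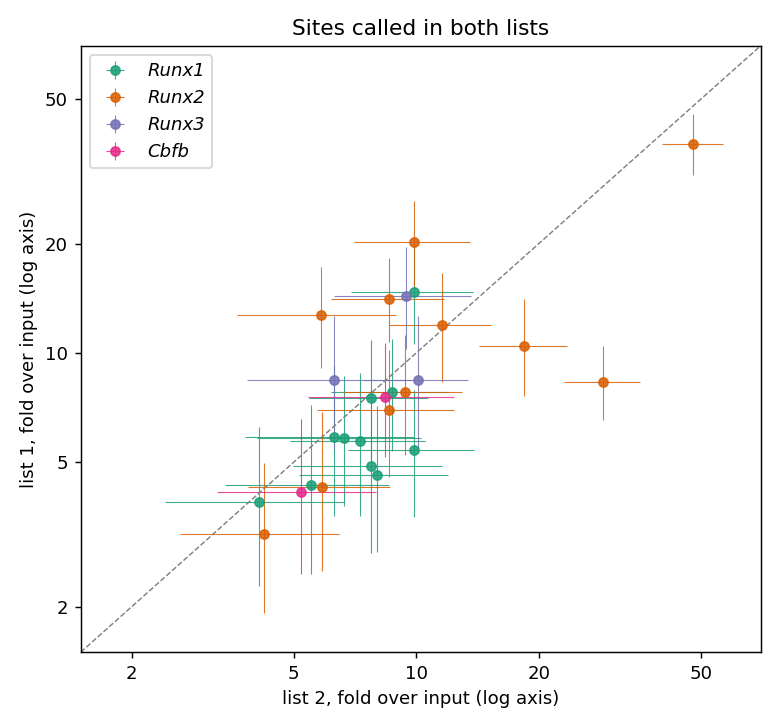
Fold over input in list 1 (vertical) and list 2 (horizontal) at the 27 sites called in both lists, both on log axes, with exact Poisson 95% intervals of each fold and the line of equal folds dashed. At 20 sites the fold as deposited was higher in list 2, against 15 and 16 under other scalings. The fold intervals were apart at 4 Runx2 sites, where the intervals of the fragment numbers overlapped.

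No test was made of the folds at shared sites, since 1 library stands behind each list. Over the 27 sites the log2 ratio of list 1 to list 2 had a median of -0.26 (SD 0.62), beside -0.15 over all 15015 shared pairs (SD 0.55). With the folds as deposited, list 1 was higher at 7 sites and list 2 at 20, and over all pairs list 1 was higher at 38.3%. This split depended on the scaling. With fragment numbers divided by the median of their list over all shared pairs, list 1 was higher at 12 sites and list 2 at 15. With the fold ratio divided by the median ratio of all pairs, list 1 was higher at 11 and list 2 at 16. At Runx1 list 2 was higher at 10 of 11 sites as deposited and at 7 of 11 under either other scaling, with a median log2 ratio of -0.18 as deposited, and no pair of intervals was apart. Runx2 had the widest spread (SD 0.85), and its fold intervals were apart at 4 of 11 sites. List 1 was higher at the sites 47.3 and 164.1 kb from the start and list 2 at those 214.7 and 314.2 kb from it. These intervals take the background as exact. The intervals of the fragment numbers, not scaled between the lists, overlapped at all 4 sites. At 47.3 kb they were 40.6 to 70.5 (list 1) and 26.1 to 51.0 (list 2). At 164.1 kb they were 26.9 to 52.2 and 11.4 to 29.7. At 214.7 kb they were 56.3 to 90.7 and 68.8 to 106, and at 314.2 kb 30.3 to 56.8 and 49.3 to 81.7. The log2 ratios of the folds at these 4 sites were 1.03, 1.12, -1.79 and -0.82. Those of the scaled fragment numbers were 0.72, 1.17, -0.09 and -0.44, so that the site 214.7 kb from the start was nearly equal by that measure. The median distance between the summits of a pair was 25 bp, and the largest was 487 bp, in the 3′ run of Runx1.

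**Figure D5:**
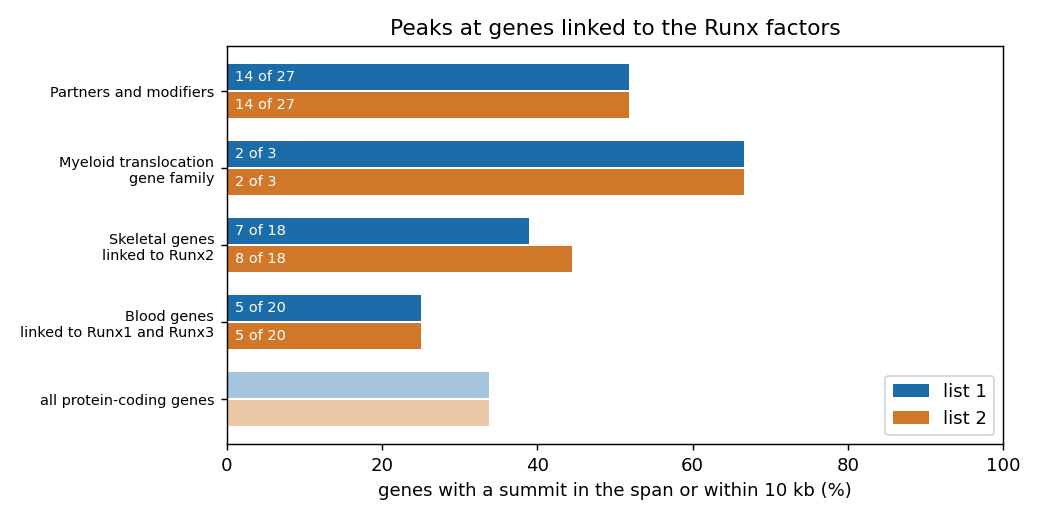
Share of genes with a summit in the span or within 10 kb (horizontal, percent) in 4 groups of genes linked to the Runx factors and in all protein-coding genes, list 1 above list 2. The partners stand at 51.9% in both lists and all protein-coding genes at 33.7% and 33.8%.

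Genes linked to Runx factors, in groups chosen from general knowledge, were counted by a summit in the span or within 10 kb. Of all protein-coding genes, 33.7% had one in list 1 and 33.8% in list 2. Of 27 genes for Runx partners and modifiers, 14 had one in list 1 and 14 in list 2, 13 of them in both. Their median span was 72.6 kb, against 17.3 kb over all genes. Ets1, encoding a DNA-binding partner of Runx1, had 7 and 9 summits, the strongest 33.4-fold and 26.8-fold over input. Hdac4, encoding a histone deacetylase that binds Runx2, had 9 and 8, up to 15.5-fold and 27.4-fold, and the histone acetyltransferase gene Kat6b had 7 and 4, up to 14.7-fold and 19.2-fold. Yap1 had 3 and 8 summits, up to 13.6-fold and 25.8-fold on 118 and 298 fragments. Wwtr1, encoding TAZ, had 6 and 9, up to 7.72-fold and 13.2-fold.

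In the myeloid translocation gene family of corepressors, Cbfa2t2 and Runx1t1 had peaks in both lists and Cbfa2t3 in neither. The Runx1t1 peak stood at 12.8-fold in list 1 against 27.8-fold in list 2, on 42 and 117 fragments, and that of Cbfa2t2 was 23.5-fold and 17.2-fold on 63 and 93. Of 18 skeletal genes linked to Runx2, 7 had a nearby summit in list 1 (38.9%) and 8 in list 2 (44.4%), with a median span of 16.0 kb. The collagen genes Col1a2 (13.7-fold and 18.1-fold) and Col1a1 (12.9-fold and 10.8-fold) and the growth factor gene Vegfa (14.1-fold and 15.1-fold) led them. Tnfsf11, encoding the osteoclast factor RANKL, had 5.14-fold and 8.03-fold. The bone matrix gene Spp1 had weak peaks, 6.24-fold and 3.30-fold. Sp7, encoding the osteoblast factor osterix, had none. Blood genes linked to Runx1 and Runx3 had a nearby summit in 5 of 20 cases in each list, or 25.0%, and 2 of these were found in both lists. They were Meis1, a homeobox gene with 10 and 11 summits and up to 27.3-fold and 28.4-fold, and the cytokine gene Il3 (8.08-fold and 14.7-fold). No test was made of these groups, and the share of genes with a peak was not compared among expressed genes.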

How the data were processed

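ChIP-seq was done once in OE-TEAD1 and once in OE-NC cells, each with input. Per the submitters' processing notes, reads were trimmed with Trimmomatic 0.33, aligned with Bowtie 1.1.2 and peaks called with MACS2; the sources used here do not give its version or settings. The deposited lists have no header and give each peak a fold over input (a ratio), a −log10 p, a −log10 q and a score, 10 times the −log10 q cut to a whole number in 100% of list 1 and 99.99% of list 2. The labels mention no pooling.

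The notes name the build mm39. Coordinates were read as GRCm38, because summits gathered at GRCm38.p6 RefSeq gene starts: 922 start and summit pairs lay within 1 kb in list 1 and 828 in list 2, against 457 and 459 at 9 to 10 kb. Fragment numbers were recovered by solving fold and p, taking the fold as pileup plus 1 over background plus 1. Within a tolerance of 0.02 they were whole for 99.97% of list 1 peaks and 99.90% of list 2 peaks, and 6 and 22 very strong peaks were not solved. The solver was checked on simulated data. The lists hold no library sizes, and the median peak had 19 and 22 fragments. The p-values and q-values are the authors' and served only to rank and filter peaks.

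With 1 library per group no test was possible, and intervals cover counting error only. Genes named within a group were Yap1, Wwtr1, Sp7, Spp1 and Runx1t1 in any case and the 4 with the highest −log10 q in both lists. For each of the 4 loci, the 3 sites with the highest −log10 q in either list, those nearest the gene ends and the strongest list-only peaks were described in full. The genes, gene groups and tests were chosen with earlier results of these data known, and the rule for runs of summits was set after the positions were seen. Gene symbols and gene group members all matched the RefSeq table, which gives no exons. Python 3.11.15, pandas 2.3.3, numpy 2.4.6 and scipy 1.17.1 were used. Alternatives changed the window, the peak threshold, the overlap and the scaling of folds.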

Additional observations from a re-analysis of the deposited data

How the results depend on the processing

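No paired analysis was possible because no result comes from a test and the lists are not tied to samples. Results that moved by more than their counting interval, or counts that changed by over 1.5 times, are given here, list 1 before list 2, and the cause was not tested beyond what each setting leaves out. In gene spans alone, Runx1 had 9 and 11 summits, Runx3 0 and 0 and Cbfb 2 in list 2, with 0 and 0 summits per 100 kb at Runx3 and 4.23 in each list at Cbfb. Within 10 kb, Runx3 had 0 and 0 summits, at 0 per 100 kb, and Cbfb had 2.97 and 4.46 per 100 kb, and 92.0% of list 1 peaks were shared. Within 50 kb Runx3 had 2 and 1 summits. With a −log10 q of at least 5, Cbfb had 1 and 2. With the 5000 strongest peaks per list, Runx1 had 1 and 0 summits, Runx2 7 and 4, Runx3 1 and 1 and Cbfb 0 and 0. These made 0.236 and 0 per 100 kb at Runx1, 1.35 and 0.771 at Runx2, 0.389 in list 1 at Runx3 and 0 and 0 at Cbfb. The median over all protein-coding genes was 0 per 100 kb in both lists under this setting, within 10 kb and in gene spans alone. With the 5000 strongest peaks, 4 sites, or 44.4% of 9 list 1 peaks, were shared. With summits within 100 bp counted as shared, 61.8% of list 1 peaks were. The share over all peaks is not given for these settings, so 92.0%, 44.4% and 61.8% have no background here. Genes with a summit within 100 kb numbered 23 and 22 of the 27 Runx partners, 15 and 16 of the 18 skeletal genes and 16 and 16 of the 20 blood genes, beside 70.9% and 72% of all protein-coding genes. With the 5000 strongest peaks and 10 kb they were 9 and 11 of the partners, 3 and 2 of the skeletal genes and 1 and 2 of the blood genes, beside 11.7% and 11.5% of all genes. Shared sites with the higher value in list 1 numbered 12 with fragment numbers over the median of the list at all shared pairs and 11 with the fold ratio divided by the median ratio of all shared sites, against 7 as deposited. Ranking sites by fold left the site values, and requiring 50% of each peak to overlap the shared percentages, within these limits. The median log2 ratio moved by less than its SD, to -0.08 and -0.11 under the same scalings. Runx3 has no strongest site in the span alone. The lowest fragment number at these loci was 9 in list 1 and 10 in list 2, and 8 over each whole list. At 9 fragments the interval of a 3.67-fold peak ran from 1.88 to 6.64. The lists hold no library sizes, so how depth bears on which peaks were called was not tested.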
